A study of Mus musculus with 5 samples.

Results

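The genes described here are the 6 that carry out protein uptake in the proximal tubule and could be named from textbook physiology: Lrp2, Cubn, Amn, Dab2, Clcn5 and Napsa. They were taken by symbol from the 32285 genes of the deposited gene lists, and all 6 were found; the rule uses no count, although earlier results of these data were known when it was made. Each gene is given as counts of unique molecular identifiers per 1000000 (CPM) of a cell type summed within a mouse, and as the percent of cells with at least 1 count.

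Filtered protein is recovered from the tubular fluid by receptors at the base of the proximal tubule brush border. Lrp2 encodes megalin, a giant receptor of the LDL receptor family, and Cubn encodes cubilin, which has no membrane anchor of its own and is held at the surface by amnionless, the product of Amn. Dab2 encodes an adaptor that links the tail of megalin to clathrin, Clcn5 encodes a chloride and proton exchanger of endosomes, and Napsa encodes napsin A, an aspartic protease of lysosomes.

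Single cells came from kidneys of 5 mice after ischemia-reperfusion injury (IRI), in which the blood supply is stopped and restored. Mice 1 and 2 were sampled at 48 h and mice 3, 4 and 5 at day 10, and 1 library per mouse was made with the v3.1 3' kit of 10x Genomics. All 5 mice had IRI and no uninjured kidney was analysed here, so each difference compares 48 h with day 10 of injured kidneys. The labels name no strain, age, genotype or batch, and each mouse was counted as 1 replicate.

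The 23797 cells in the authors' cell table had between 45887945 and 78351722 summed counts per mouse, and the 4680 cells with a proximal tubule label had a median of 9938 counts. These cells were fewer in mouse 4 (334) than in the other mice (769 to 1359), and their median count was 5996 and 6197 at 48 h against 12625.5 to 16589.5 at day 10. Pairs of libraries shared between 3 and 10 cell barcodes. The authors divide these cells into 5 labels, in which PTEC stands for proximal tubule epithelial cell: S1, Lrp2+ S2/3, Lrp2- S2/3, injured and cycling. All 8 proximal tubule markers were detected in the first 4 of these labels, where they summed to between 3736 and 15426 CPM in every mouse. The cycling label held only 18 to 35 cells per mouse at day 10, and there its proximal tubule markers summed to 170 to 305 CPM, below the 563 to 1923 CPM of the thick ascending limb markers in the same cells. At day 10 the data thus go against the name of that label, and it was not tested for time.

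The promoters of the receptor genes are shown because their transcripts were found together across cell types while their sequences are of different composition. Each is the 250 bases before the RefSeq transcription start (GRCm38.p6), written in the direction of the gene; 5 of the 6 genes were matched in the RefSeq table. The Lrp2 stretch lies on the minus strand at chr2:69586030-69586279, the Cubn stretch on the minus strand at chr2:13491877-13492126 and the Amn stretch on the plus strand at chr12:111270846-111271095.
Lrp2: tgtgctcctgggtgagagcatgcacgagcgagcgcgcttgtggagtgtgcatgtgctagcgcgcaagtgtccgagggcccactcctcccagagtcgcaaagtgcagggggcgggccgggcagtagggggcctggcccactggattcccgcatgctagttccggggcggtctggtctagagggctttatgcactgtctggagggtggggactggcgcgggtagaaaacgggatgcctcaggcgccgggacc
Cubn: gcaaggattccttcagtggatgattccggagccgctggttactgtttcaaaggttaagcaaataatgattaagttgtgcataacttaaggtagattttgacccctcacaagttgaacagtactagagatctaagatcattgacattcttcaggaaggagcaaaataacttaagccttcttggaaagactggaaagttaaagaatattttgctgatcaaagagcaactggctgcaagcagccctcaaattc
Amn: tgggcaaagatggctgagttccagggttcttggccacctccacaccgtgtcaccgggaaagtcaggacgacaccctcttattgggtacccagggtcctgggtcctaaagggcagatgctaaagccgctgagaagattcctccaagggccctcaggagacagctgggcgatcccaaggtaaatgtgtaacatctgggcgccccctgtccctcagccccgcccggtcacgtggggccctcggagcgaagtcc
The Lrp2 stretch has 66.4% G and C with 18 CpG dinucleotides, the Cubn stretch has 39.6% with 2, and the Amn stretch has 61.2% with 11, against a median of 52.4% and 6 over 32851 promoters of the same length.

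In the GENCODE M21 annotation (GRCm38) each of the 6 genes is protein coding. Lrp2 spans chr2:69424340-69586065 on the minus strand and Amn spans chr12:111271095-111276426 on the plus strand, with no overlapping gene. Cubn spans chr2:13276338-13491813 on the minus strand and has Gm13270 on the other strand, and Napsa spans chr7:44572380-44586862 on the plus strand with Gm15396 on the other strand. Dab2 spans chr15:6299788-6440712 on the plus strand, with Gm16311 and Gm18888 on the other strand. Clcn5 spans chrX:7153810-7319358 on the minus strand and holds 5 microRNA genes on its own strand, with Gm26401 on the other strand. Counts were made from 3' reads and are not scaled to length, so levels are compared between cells and not between genes.

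The receptor genes Lrp2, Cubn and Amn were found almost wholly in the proximal tubule. Of all their counts in kept cells, 94.6% ± 1.5 of Lrp2, 94.0% ± 1.2 of Cubn and 93.6% ± 1.1 of Amn (mean ± SD, n = 5 mice) lay in cells with a proximal tubule label. Levels across labels are given as a description with no test, because the labels come from a clustering of the same cells and 2 of them are named by Lrp2. Outside the proximal tubule Lrp2 was at 17.5, 20.4, 22.7, 8.07 and 21.6 CPM in mice 1 to 5, against 879, 1459, 863, 798 and 919 CPM inside it. The lowest of these tubule values is above the highest outside value by more than the spread of either.

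With each cell thinned to 1000 counts, 46.3% of proximal tubule cells and 3.05% of all other cells held Lrp2, where the median depth before thinning was 9938 and 8954 counts. The same shares were 11.5% and 0.528% for Cubn and 13.6% and 0.754% for Amn. Unthinned, 78.3% of proximal tubule cells and 14.7% of other cells held Lrp2. The source of the counts outside the proximal tubule was not tested, so a share at that height is not taken as those cells' own transcript. Among the labels outside the proximal tubule the highest mean level of Lrp2 was 59.2 CPM, in the label TEC. The next was 33.2 CPM in endothelial cells. Proximal tubule markers summed to 325 to 901 CPM in TEC and to 168 to 480 CPM in endothelial cells.

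The adaptor Dab2 and the exchanger Clcn5 were widely found, each with its highest summed CPM in a cell type outside the proximal tubule. Proximal tubule cells held 32.4% ± 13.2 of Dab2 counts and immune cells 58.1% ± 14.2 (mean ± SD, n = 5 mice). Dab2 was at 564, 540.1, 589, 647 and 503 CPM in immune cells of mice 1 to 5, and at 316, 344, 345, 451 and 378 CPM in proximal tubule cells. Immune cells were higher in each of the 5 mice and the values of the types did not overlap. As a mean of per-cell CPM, which weights each cell equally, Dab2 was at 453 in immune cells, 471 in S1 and 463 in the Lrp2- S2/3 label, so its first place depends on the summing. Among the immune clusters, Dab2 was concentrated in cluster 0 (638 CPM), with 12.9 to 52.6 CPM in clusters 5, 10 and 12. Intercalated cells, the acid and base secreting cells of the collecting duct, held Dab2 at 308 to 344 CPM, close to the 302 to 413 CPM of the Lrp2+ S2/3 label.

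Clcn5 had its highest level in intercalated cells, at 296, 337, 489, 435 and 423 CPM in mice 1 to 5. The lowest of these is above the highest of the S1 label, the next in order, which had 125, 113.1, 109, 108 and 96.8 CPM. Intercalated cells are few, however, and held 19.9% of Clcn5 counts, compared with 35.6% in the proximal tubule and 22.4% in immune cells. The shares move with the number of cells caught per type and are given as a description.

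Napsa lay between these patterns, with 67.5% ± 16.3 of its counts in the proximal tubule and 26.2% ± 15.0 in immune cells (mean ± SD, n = 5 mice). Immune cells held Napsa at 169, 186, 119.6, 54.6 and 117 CPM. Among their clusters the mean was highest in cluster 12, at 419 CPM over only 101 cells, against 137 CPM in cluster 0.

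**Figure D1:**
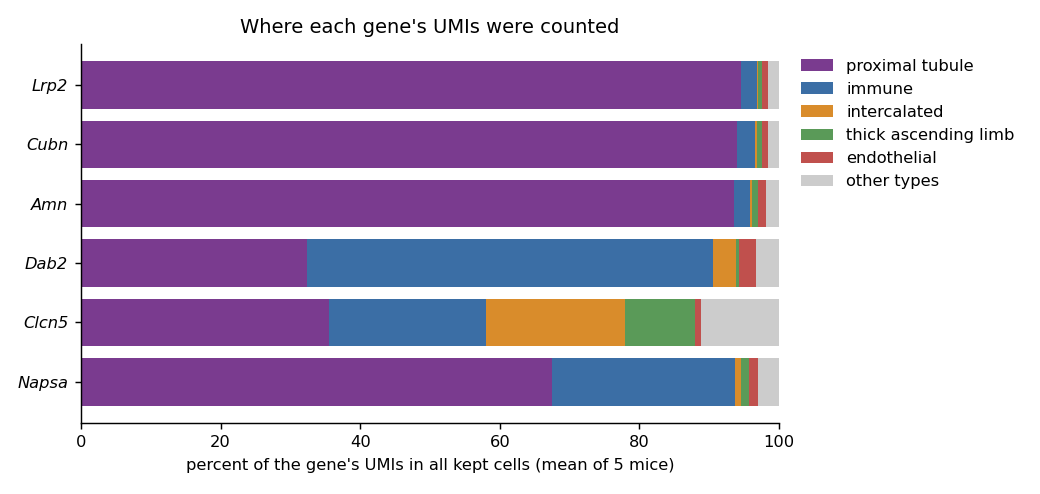
Percent of the counts of each gene (x axis) that lay in each cell type, mean of 5 mice; each bar is 1 gene and each colour 1 type. Lrp2, Cubn and Amn are almost all proximal tubule (93.6% to 94.6%), whereas Dab2 has more of its counts in immune cells (58.1%) than in the proximal tubule (32.4%).

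**Figure D2:**
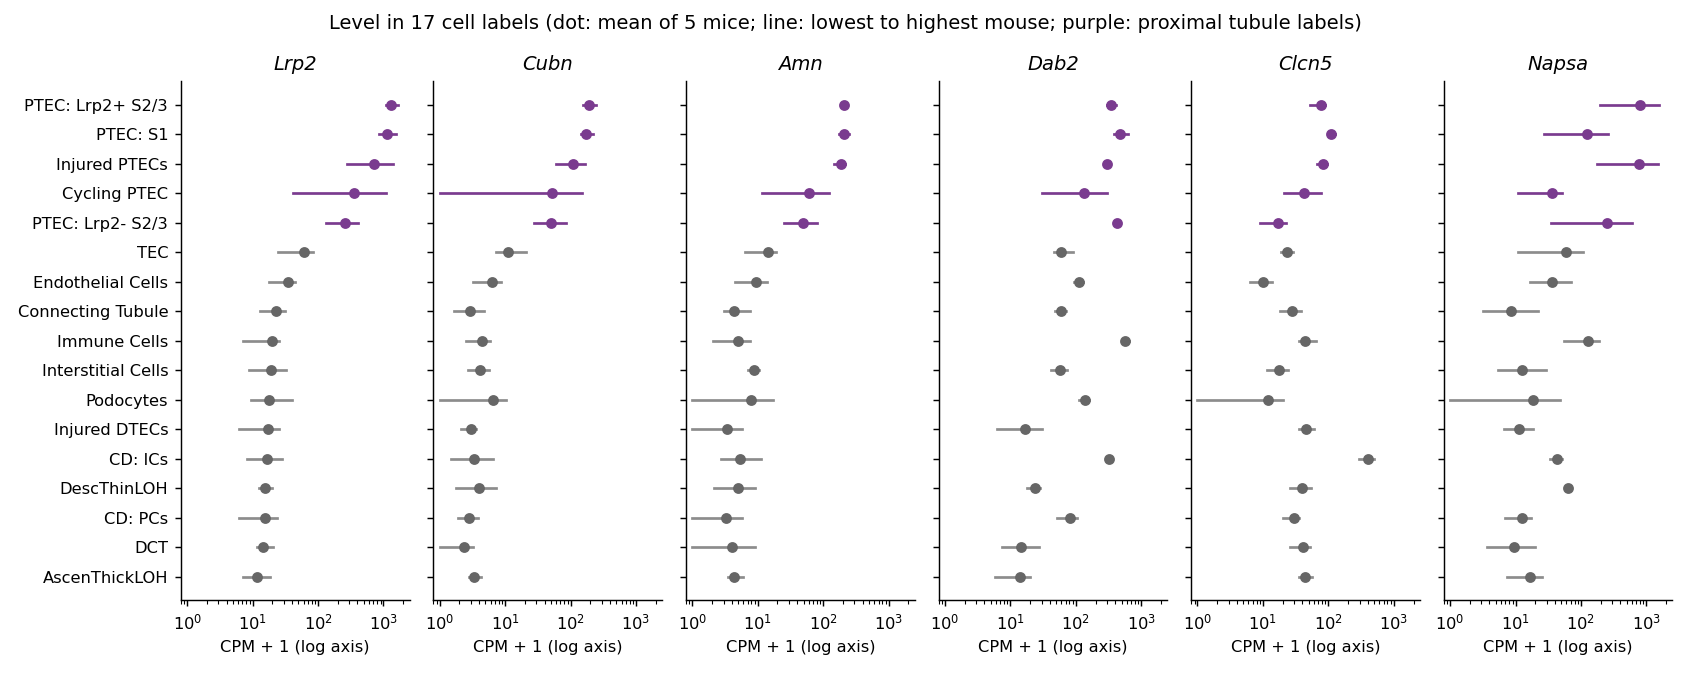
Level of each gene in 17 cell labels as CPM + 1 on a log axis; dots are means of 5 mice, lines run from the lowest to the highest mouse, and purple marks the proximal tubule labels. Lrp2, Cubn and Amn fall below every proximal tubule mean in all other labels, while Clcn5 is highest in the intercalated cells (CD: ICs, mean 396 CPM) and Dab2 in immune cells (mean 569 CPM).

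Within the proximal tubule the genes did not share 1 order along the segments. The early segment S1 and the later S2/3 cells with the Lrp2+ label overlapped in Lrp2 (846 to 1544 and 1099 to 1646 CPM), Cubn and Amn. Dab2 was higher in S1 than in the Lrp2+ S2/3 label in each of the 5 mice, with 379.6, 390.0, 502, 623 and 501 CPM against 319.9, 333, 302, 413 and 341 CPM. Clcn5 was also higher in S1 in each mouse, and its lowest S1 value of 96.8 CPM is above the highest Lrp2+ S2/3 value of 86.8 CPM. Napsa had the opposite order, with 26.6, 65.8, 255, 127 and 133 CPM in S1 against 195, 262, 1562, 845 and 1181 CPM in the Lrp2+ S2/3 label, and was lower in S1 in each mouse. S1 markers summed to 2120 to 3352 CPM in the S1 label and 681 to 1935 CPM in the Lrp2+ S2/3 label. S2/3 markers summed to 23.6 to 294 CPM and 380.1 to 1305 CPM in these labels. In the Lrp2- S2/3 label S1 markers summed to 456 to 1384 CPM and S2/3 markers to 40.0 to 223 CPM. The S2/3 markers thus do not bear out the S2/3 name of the Lrp2- label, which is used as the authors gave it.

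The Lrp2- S2/3 label was low in 4 of the 6 genes but not in Dab2. Lrp2 was at 133, 198, 321, 232 and 406 CPM there and was still above the 23.6 to 83.7 CPM of TEC, the next label in order. Cubn (26.7 to 83.7 CPM), Amn (24.0 to 80.6 CPM) and Clcn5 (7.99 to 21.7 CPM) were also below their S1 and Lrp2+ S2/3 values in each mouse. Dab2, at 401, 422, 406, 432 and 468 CPM, was above the Lrp2+ S2/3 label in each mouse, above S1 in the mice at 48 h and below S1 in the mice at day 10. Thinned to 1000 counts, 18.9% of these cells held Lrp2 against 64.9% in the Lrp2+ S2/3 label, while 33.4% and 26.9% held Dab2. The cells of this label had a median of 1861.5 to 2406 counts per mouse and 1.80% to 2.25% mitochondrial counts, whereas S1 and Lrp2+ S2/3 cells had 20.1% to 25.4%. The part of depth and of the mitochondrial share in these levels was not tested.

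Across the 15 labels with at least 20 cells in every mouse, Lrp2, Cubn and Amn followed each other closely on the log2(CPM + 1) scale (Pearson r of 0.988 to 0.993 between pairs, a description over labels that share libraries and free RNA). Of 9887 genes, those most like Lrp2 were Abcc2, an export pump for organic anions (r = 0.997), Lrrc19 and Cubn. Cubn was most like Clrn3 and Slco1a6, among others, and Amn was most like Slco1a6, Slc51a and Slc17a1, most of them carriers of organic ions. Clcn5 was most like Atp6v0c (r = 0.854), Dmxl1 and Atp6v0b, of which the first and the last encode subunits of the proton pump, and all 3 were also higher in intercalated cells than in S1. Dab2 was most like Dnajc13 (r = 0.884), Epn1 and Rilpl2, and Napsa most like Dglucy (r = 0.931), Cndp2 and Slc6a13.

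Between 48 h and day 10 the proximal tubule as a whole showed a rise of Napsa and no other call among the 6 genes. Napsa was at 146 and 196 CPM at 48 h and at 1139.5, 553 and 760.1 CPM at day 10. All 3 mice at day 10 were above both mice at 48 h. The log2 change, here and below day 10 over 48 h, was 2.01 (SE 0.34, adjusted p = 0.0319, edgeR quasi-likelihood F test, Benjamini-Hochberg over all genes). Over all 13899 genes tested 1.28% were called higher and 1.94% lower at day 10, and in 43.1% the day 10 CPM were all above those at 48 h. Napsa was still higher but not called without mouse 1 (adjusted p = 0.0733), mouse 2 (0.0968), mouse 3 (0.0622) or mouse 5 (0.0983), and passed without mouse 4 (0.0444). Thinned to 1000 counts, 10.96% ± 3.6 of proximal tubule cells held Napsa at 48 h (SD, n = 2 mice) and 32.3% ± 4.9 at day 10 (SD, n = 3 mice).

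Beside this rise, the summed level of 8 macrophage markers in proximal tubule cells was 31.9 and 47.8 CPM at 48 h and 208, 410.2 and 356 CPM at day 10. In immune cells these markers summed to 14529 to 35092 CPM, and at day 10 immune cells held less Napsa (54.6 to 119.6 CPM) than proximal tubule cells (553 to 1139.5 CPM). The mix of labels in the sum also differed. The Lrp2+ S2/3 label made up 6.03% and 23.3% of these cells at 48 h and 26.7%, 33.2% and 29.0% at day 10. The Lrp2- S2/3 label made up 23.4% and 23.3%, then 14.5%, 12.0% and 10.5%. The part of this mix in the summed values of the 6 genes was not tested. Summed CPM alone cannot tell more cells with a transcript from more transcript per cell. Unthinned, 70.7% of cells in the Lrp2+ S2/3 label held Napsa at 48 h and 92.2% at day 10 (means over mice). The mean level of Napsa there was 228 and 1196 CPM. For the injured label the shares were 68.3% and 91.3%, and the levels 249 and 1116 CPM. These shares carry depth, and the part of each in the rise was not tested.

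Of the receptors in the whole proximal tubule, Lrp2 was at 879 and 1459 CPM at 48 h and 863, 798 and 919 CPM at day 10 (log2 change -0.70, SE 0.22, adjusted p = 0.134 by edgeR). The groups overlapped, since mouse 1 was below 1 of the mice at day 10. Lrp2 passed without mouse 1 (-1.01, adjusted p = 0.0363) and with the DESeq2 Wald test (-0.71, adjusted p = 0.0484). Without cells labelled injured or cycling its log2 fold change was -0.33 (adjusted p = 0.466). Cubn was at 140.0 and 181 CPM against 119, 173 and 133 CPM (log2 change -0.44, SE 0.19, adjusted p = 0.229) and also overlapped. Amn (log2 change 0.09, SE 0.15, adjusted p = 0.761), Dab2 (-0.02, SE 0.15, adjusted p = 0.956) and Clcn5 (-0.38, SE 0.13, adjusted p = 0.163) did not pass the edgeR test. Fold changes are on a scale that removes a shift of the median gene, which in raw CPM was 0.26 (log2) higher at day 10 in the proximal tubule, 0.15 in S1, 0.17 in the Lrp2+ S2/3 label, 0.44 in the injured label and 0.34 in the thick ascending limb.

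**Figure D3:**
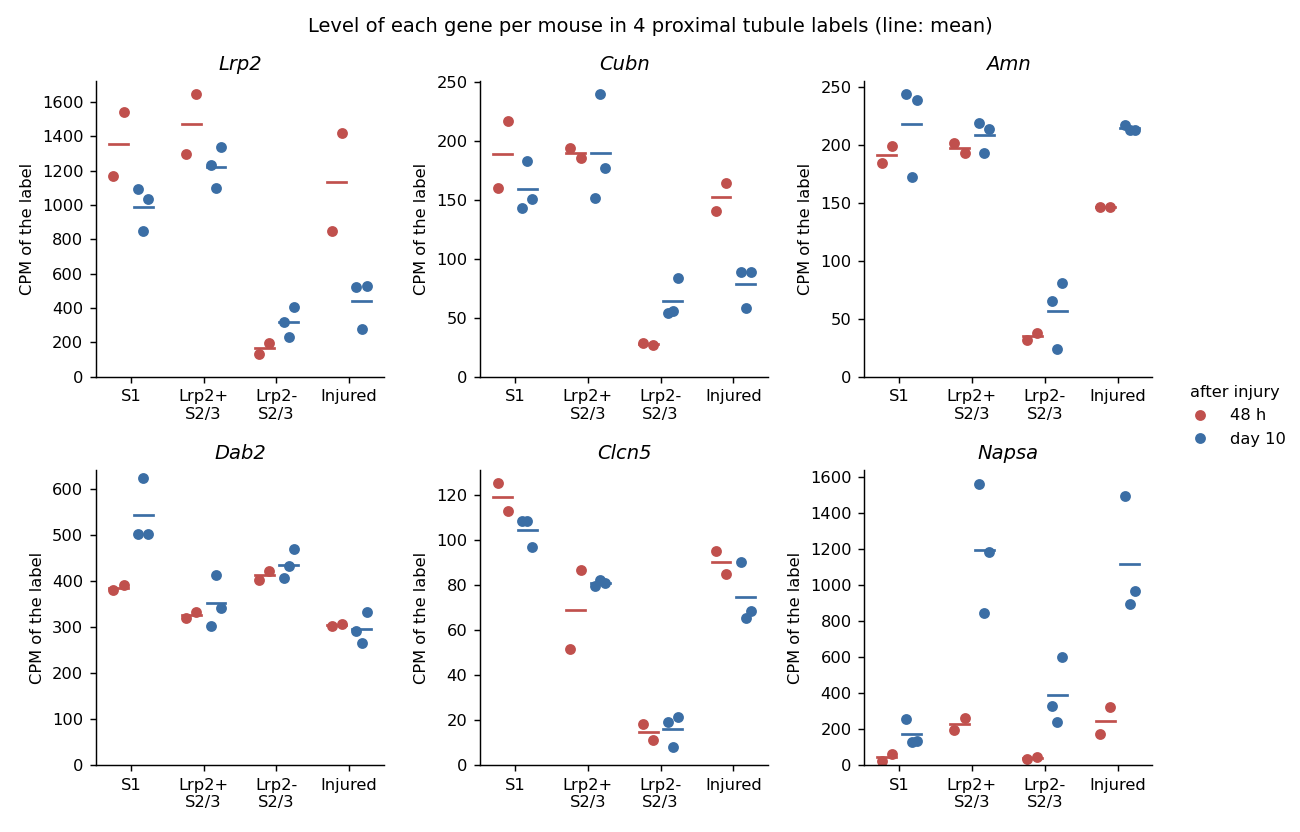
CPM of each gene (y axis) in 4 proximal tubule labels (x axis), 1 point per mouse, red at 48 h and blue at day 10, with lines at the means. Napsa is higher at day 10 in each label, and in the injured label Lrp2 (850.2 and 1419.6 against 276 to 529 CPM) and Cubn do not overlap between the times.

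Napsa was higher at day 10 inside each of the 4 labels tested and passed in 3 of them. In the Lrp2+ S2/3 label it was at 195 and 262 CPM at 48 h and 1562, 845 and 1181 CPM at day 10 (log2 change 2.26, SE 0.30, adjusted p = 0.0206 by edgeR), where 0.37% of 10538 genes were called higher and 29.5% had all day 10 CPM above those at 48 h. In either direction 1.07% were called. There it lost its call without mouse 1 (adjusted p = 0.171) or mouse 2 (0.205), with 2.05 and 2.50 as log2 fold changes. Macrophage markers in this label summed to 15.1 and 36.9 CPM at 48 h and 221, 632 and 416 CPM at day 10, and their part in the rise was not tested. In the Lrp2- S2/3 label Napsa rose from 34.4 and 48.9 CPM to 328, 239.8 and 602 CPM (log2 change 3.27, SE 0.35, adjusted p = 6.8e-05), where 0.724% of 5666 genes were called higher, and it passed without any 1 mouse. Macrophage markers summed there to 52.8 and 151 CPM at 48 h and 365, 664 and 518 CPM at day 10, likewise not tested.

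In S1 Napsa was at 26.6 and 65.8 CPM against 255, 127 and 133 CPM, with no overlap, and did not pass (log2 change 1.73, SE 0.42, adjusted p = 0.0789 by edgeR). In S1 0.389% of 11054 genes were called higher at day 10, and in 28.4% the mice at day 10 were all above those at 48 h. Macrophage markers in S1 summed to 40.7 and 58.8 CPM against 281, 252 and 185 CPM. The time effect of Napsa was not shown to differ between S1 and the Lrp2+ S2/3 label (log2 difference -0.50, SE 0.22, adjusted p = 0.514 in the edgeR interaction test with mouse as a block), where 0.369% of genes were called. Dab2 in S1 was at 379.6 and 390.0 CPM at 48 h and 502, 623 and 501 CPM at day 10, with no overlap and no call (log2 change 0.34, SE 0.16, adjusted p = 0.329). Its difference from the Lrp2+ S2/3 label did not pass (0.39, SE 0.13, adjusted p = 0.298).

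In the cells labelled injured, Lrp2 and Cubn were lower at day 10 and passed the test, and Amn did not pass. Lrp2 was at 850.2 and 1419.6 CPM at 48 h and 519.6, 276 and 529 CPM at day 10, with mouse 4, which had 48 cells of the label, the lowest. The log2 fold change was -1.76 (SE 0.36, adjusted p = 0.0364, edgeR). Cubn was at 141 and 165 CPM and then at 88.9, 58.3 and 89.3 CPM (log2 change -1.34, SE 0.25, adjusted p = 0.0284). For both genes all mice at day 10 were below both mice at 48 h. Over 12353 genes 2.76% were called higher and 3.12% lower, and in 8.04% the day 10 CPM were all below those at 48 h, while in 52.5% they were all above. Lrp2 lost its call without mouse 2 (adjusted p = 0.193), mouse 3 (0.0819) or mouse 5 (0.075), and so did Cubn (0.127, 0.0642 and 0.0634).

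Amn in the injured label was at 146 and 146 CPM at 48 h and 217, 213 and 213 CPM at day 10, and its log2 fold change relative to the median gene was 0.13 (SE 0.17, adjusted p = 0.652, edgeR). Clcn5 (log2 change -0.67, SE 0.22, adjusted p = 0.0978) and Dab2 (-0.45, SE 0.20, adjusted p = 0.182) did not pass. Napsa rose there too, from 176 and 321 CPM to 1490.4, 893 and 964 CPM (log2 change 1.76, SE 0.36, adjusted p = 0.0374), and lost its call without mouse 1 (0.0852), mouse 2 (0.0689), mouse 3 (0.0834) or mouse 5 (0.0748). With each cell of the label thinned to 1000 counts, 55.8% ± 10.9 held Lrp2 at 48 h (SD, n = 2 mice) and 29.6% ± 9.1 at day 10 (SD, n = 3 mice), and for Cubn the shares were 14.1% ± 1.9 and 6.96% ± 1.95. Median mitochondrial shares in the label were 21.8% and 23.8% at 48 h and 16.9%, 9.29% and 15.3% at day 10, and macrophage markers summed to 29.9 and 27.6 against 109, 218 and 436 CPM. Their part in these changes was not tested.

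Lrp2 was also lower at day 10 in S1, at 1356 ± 267 CPM at 48 h (SD, n = 2 mice) and 991 ± 128 CPM at day 10 (SD, n = 3 mice). The mice did not overlap, but the share of all genes lower in this way is not given here. It was not called in S1, and fits that left out 1 mouse gave log2 changes between -0.79 and -0.39. The fall of Lrp2 was larger in the injured label than in S1. The log2 difference of its time effects was -1.21 (SE 0.23, adjusted p = 0.0274, edgeR interaction test) against S1, where 2.74% of genes were called. It did not pass without mouse 1 (adjusted p = 0.135), mouse 2 (0.228) or mouse 3 (0.075). Against the Lrp2+ S2/3 label the difference for Lrp2 was -1.37 (SE 0.23), given as a description because that label is named by Lrp2. For Cubn these differences were -0.94 (SE 0.27, adjusted p = 0.0939) and -1.12 (SE 0.30, adjusted p = 0.0914), and 1.94% of genes were called against the Lrp2+ S2/3 label. The comparisons with S1 and with the Lrp2+ S2/3 label share the injured cells.

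In the Lrp2- S2/3 label neither Lrp2 nor Cubn passed the test for time. Lrp2 was at 133 and 198 CPM at 48 h and 321, 232 and 406 CPM at day 10 (log2 change 0.98, SE 0.25, adjusted p = 0.0647, edgeR), with no overlap. Cubn was at 28.2 and 26.7 CPM and then at 54.4, 56.0 and 83.7 CPM (log2 change 1.19, SE 0.36, adjusted p = 0.125), also with no overlap, as in 14.7% of the genes tested in that label. Against the Lrp2+ S2/3 label the log2 difference of the time effect of Cubn was 1.35 (SE 0.33, adjusted p = 0.0287, edgeR interaction test). In that comparison 0.925% of genes were called. Cubn followed Lrp2, which names both labels, across labels (r = 0.993), and the pair was chosen after seeing the data. The value for Cubn is therefore also a description. For Lrp2 the same difference was 1.27 (SE 0.19), a description only, because both labels are named by Lrp2. The difference for Cubn did not pass without mouse 1 (adjusted p = 0.204), mouse 2 (0.119), mouse 3 (0.0737) or mouse 5 (0.279). Scaled by total counts alone, the log2 change of Lrp2 within the label was 1.02 (adjusted p = 0.0483, edgeR), and without mouse 2 it was 1.24. The label is named by Lrp2, so its time values for Lrp2 are likewise a description.

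**Figure D4:**
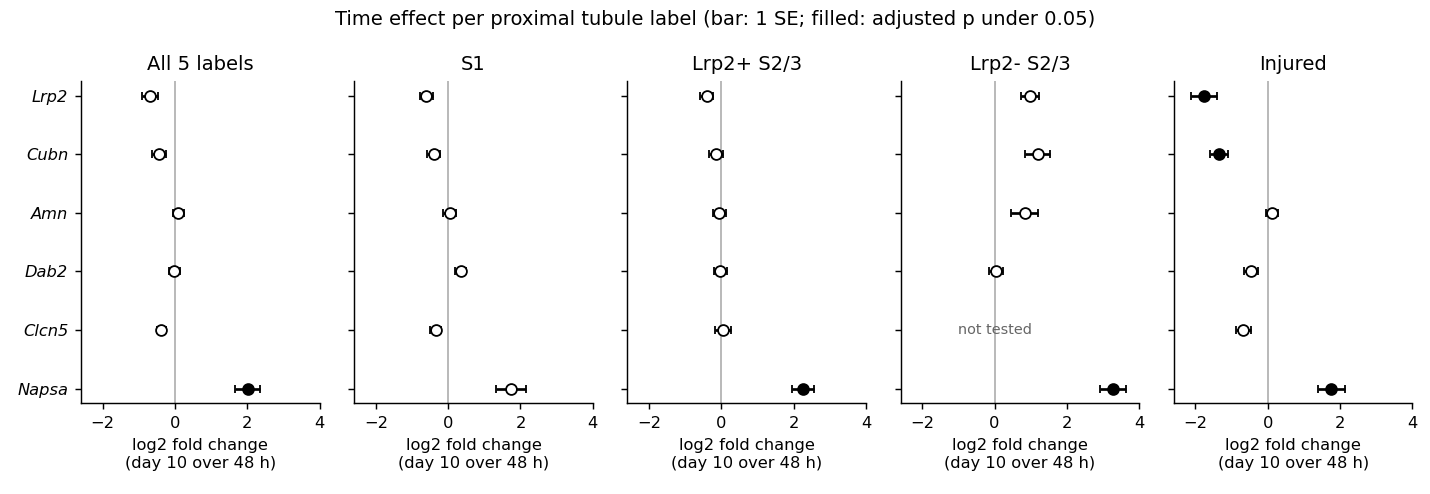
Log2 fold change of day 10 over 48 h (x axis) for each gene in all proximal tubule cells and in 4 labels; bars are 1 SE and filled points passed the edgeR test. Napsa lies to the right in each panel (1.73 to 3.27), and Lrp2 and Cubn pass to the left in the injured label alone (-1.76 and -1.34). Both also lie to the left in S1 without passing.

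The other genes of the uptake route gave no call in the summed proximal tubule. None of 12 receptor partners, 15 clathrin coat genes, 18 endosome traffic genes, 22 acidification genes, 18 lysosome genes, 10 regulators and 5 vitamin D genes passed the edgeR test at either side, with 2, 2, 5, 3, 5, 0 and 1 genes at an unadjusted p under 0.05, as had 3149 of all 13899 genes. Their median log2 fold changes lay between -0.18 (acidification) and 0.07 (regulators), against 0.03 over all genes. The transcription factor Hnf4a (log2 change -0.04, SE 0.17, adjusted p = 0.9) and the phosphate carrier Slc34a1 (0.01, SE 0.33, adjusted p = 0.993) did not pass. None of 16 carrier genes passed, and of 12 injury genes Cd44, a hyaluronan receptor, rose from 2.94 to 30.3 CPM (log2 change 3.12, SE 0.17, adjusted p = 0.0025) and the monocyte attractant Ccl2 from 2.66 to 74.4 CPM (log2 change 4.58, SE 0.24, adjusted p = 0.0025). The injury marker Havcr1 did not pass (log2 change -0.91, SE 0.77, adjusted p = 0.515). Over all genes 1.28% were called higher. Macrophage markers in the summed proximal tubule were at 31.9 and 47.8 CPM at 48 h and 208, 410.2 and 356 CPM at day 10. Their part in the rise of Cd44 and Ccl2 was not tested.

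In the injured label, where Lrp2 and Cubn fell, 4 of 16 carrier genes were also called lower and 6 of 12 injury genes higher. Over all genes tested in the label 3.12% were called lower and 2.76% higher. The median log2 fold change of the carrier list was -0.95, and that of all genes 0.04. The carriers called lower, named after their values were seen, were Slc13a3, a dicarboxylate carrier (log2 change -2.47, SE 0.37, adjusted p = 0.0164), the lactate carrier Slc5a12 (-1.25), the amino acid carrier Slc7a8 (-1.25) and the organic anion carrier Slc22a8 (-0.89). The injury genes called higher were Ccl2 (6.29), Cd44 (4.46), the adhesion molecule Vcam1 (3.94), the filament genes Krt18 (3.18), Vim (3.05) and Krt8 (1.05). Macrophage markers in the label summed to 29.9 and 27.6 CPM at 48 h and 109, 218 and 436 CPM at day 10. Their part in the rise of these injury genes was not tested. Of the uptake lists, B2m, a filtered ligand of megalin that cells also make, was called higher (0.91, adjusted p = 0.044), and the lysosomal activator Psap (-0.97, adjusted p = 0.0482) and the regulator Esrra (-0.97, adjusted p = 0.0498) were called lower. No gene of the clathrin coat, endosome traffic, acidification or vitamin D lists passed there, with 3, 3, 6 and 2 genes at an unadjusted p under 0.05, as had 3362 of all 12353 genes.

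Outside the proximal tubule 3 of the 6 genes passed in the thick ascending limb, at low levels, and none passed in the 7 other types tested. In those types 19.2% (immune), 0.328% (endothelial), 7.44% (interstitial), 0.00774% (distal and principal), 0.238% (intercalated), 5.12% (descending thin limb) and 0.525% (TEC) of genes were called in either direction. Dab2 was at 6.05 and 4.89 CPM at 48 h and 17.5, 19.1 and 18.3 CPM at day 10 (log2 change 1.36, SE 0.18, adjusted p = 0.009, edgeR). Napsa was at 6.32 and 6.48 CPM and then at 24.2, 21.7 and 19.7 CPM (1.42, SE 0.17, adjusted p = 0.0061). Clcn5 fell from 44.7 and 55.1 CPM to 43.7, 35.1 and 37.6 CPM (-0.71, SE 0.15, adjusted p = 0.0269), and without the median shift, on total counts, its log2 fold change was -0.35 with no call (adjusted p = 0.119). In this type 4.98% of 12797 genes were called higher and 5.38% lower, and in 51.2% all mice at day 10 were above those at 48 h. Macrophage markers there summed to 26.8 and 42.5 CPM at 48 h and 292, 458 and 412 CPM at day 10, and the median mitochondrial share of the cells was 22.97% and 21.8% against 7.20%, 8.70% and 6.89%. Mean Napsa and Dab2 in this type were 0.0281 and 0.0359 times their proximal tubule levels, and Napsa also rose in proximal tubule cells of the same libraries. The part of the macrophage markers, of the mitochondrial share and of free RNA in these values was not tested. Dab2 lost its call without mouse 5 (adjusted p = 0.0667), and Clcn5 without mouse 2 (0.0998), mouse 4 (0.0746) or mouse 5 (0.129).

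In immune cells Napsa moved against its direction in the proximal tubule and did not pass, with 169 and 186 CPM at 48 h and 119.6, 54.6 and 117 CPM at day 10 (log2 change -0.83, SE 0.32, adjusted p = 0.116, edgeR). The groups did not overlap, as for 28% of genes in that direction. It passed without mouse 4 (-0.57, adjusted p = 0.0134) and with the DESeq2 Wald test (-0.87, adjusted p = 0.0353). The make-up of the immune label differed between the times, with neutrophil markers at 22630.5 and 46455.5 CPM at 48 h and 1465, 633 and 1810.5 CPM at day 10. In immune cluster 0 alone, where these markers summed to at most 3260 CPM, Napsa was at 182 and 211 CPM and then at 121, 54.5 and 117 CPM (log2 change -0.96, SE 0.33, adjusted p = 0.0774, edgeR; 0.0133 with the DESeq2 Wald test), a set added after seeing the data. It passed there without mouse 4 (-0.69, adjusted p = 0.00645). The part of the make-up in the label's values was not tested. The difference of the time effects between the proximal tubule and immune cells was 2.85 (log2, SE 0.22, adjusted p = 0.0051), where 7.31% of 15374 genes were called, and it passed without any 1 mouse. The difference from intercalated cells was 2.03 (SE 0.30, adjusted p = 0.0113), where 1.06% were called, and it did not pass without mouse 1 (adjusted p = 0.0502). From endothelial cells it was 1.20 (SE 0.31, adjusted p = 0.103), where 1.54% were called. These differences share the proximal tubule cells. The time effect of Dab2 in the proximal tubule was not shown to differ from that in immune cells (-0.15, SE 0.16, adjusted p = 0.617) or interstitial cells (-0.75, SE 0.23, adjusted p = 0.106, with 4.12% of genes called). Clcn5 in intercalated cells, where it was highest, did not pass (log2 change 0.38, SE 0.13, adjusted p = 0.35), and its difference from the proximal tubule was -0.75 (SE 0.17, adjusted p = 0.0658).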

How the data were processed

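Single-cell 3' libraries of 5 mouse kidneys were analysed. The authors deposited raw UMI counts per gene and barcode for each mouse and a table of kept cells with labels, counts and the percent of mitochondrial counts; these deposited percent values and counts were checked against the matrices and matched in every cell. The submitters' processing notes name Cell Ranger 6.0.2, Seurat 4.0.5 and mm10, and the matrix headers name Cell Ranger 6.0.0. Kept cells had at least 1000 counts and under 35% mitochondrial counts; no removal of doublets or free RNA was visible.

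Counts were summed per mouse and label or merged type (at least 20 cells in every mouse) and tested with edgeR 4.0.16 in R 4.3.3 (filterByExpr, TMM, quasi-likelihood F test), Benjamini-Hochberg over all genes of the type, threshold 0.05, 2 mice against 3. Differences of time effects used an interaction with mouse as a block. CPM are of raw totals. The SE is the fold change over the root of F. P-values for a difference between the times weigh it against the spread between mice. Those for a difference of time effects, with mouse as a block, weigh it against the spread between types that is left within mice. DESeq2 1.42.0 and other settings were alternatives. Shares were computed after thinning each cell to 1000 counts.

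The members and gene lists were chosen with earlier results of these data known. Named genes were the members, list genes passing in the summed proximal tubule, Hnf4a, Slc34a1, Havcr1 and, per member, the 3 genes most alike across 15 labels among those with at least 20 CPM in a label. Sequences are from RefSeq (GRCm38.p6), gene spans from GENCODE M21. List genes that passed only in the injured label were named after their values were seen. Some genes that the rule names, and results that need them, are not reported here.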

Additional observations from a re-analysis of the deposited data

Results flagged for a closer look

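The rise of Napsa at day 10 in the proximal tubule differed from its time effect in immune cells, by 2.85 on the log2 scale, and in intercalated cells, by 2.03, in the edgeR interaction test. Napsa is a lysosomal protease gene, and its own log2 fold changes were 2.01, -0.83 and -0.04 in these types. The pair with intercalated cells was chosen after seeing the data, and its call did not hold in every fit that left out 1 mouse.

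The time effect of Lrp2 in the injured label differed from that in S1 by -1.21 in the same test. For Cubn the difference of the Lrp2- S2/3 label from the Lrp2+ S2/3 label was 1.35, as a description. Both pairs were chosen after seeing the data, and neither call held in every fit that left out 1 mouse. For Lrp2 the values against the Lrp2+ S2/3 label were -1.37 in the injured and 1.27 in the Lrp2- S2/3 label, as a description, because these labels are named by Lrp2.

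All 6 genes were also found in barcodes that the authors left out of their cell table and that had at least 35% mitochondrial counts. Mean levels over the 5 mice there were 561 CPM for Lrp2, 72.6 CPM for Cubn, 98.9 CPM for Amn, 147 CPM for Dab2, 61.5 CPM for Clcn5 and 165 CPM for Napsa. All 6 means were higher at day 10 than at 48 h, from 62.5 to 234 CPM for Napsa, 86.7 to 186 CPM for Dab2, 68.3 to 119 CPM for Amn, 50.1 to 87.6 CPM for Cubn, 54.2 to 66.3 CPM for Clcn5 and 413 to 660.1 CPM for Lrp2. For Lrp2 the times overlapped (337 and 489 against 831, 436 and 714 CPM), and for the other genes they did not. These barcodes have no cell type label, and no lower limit on counts was set. The share over all genes was not computed for them, so the higher means are a description.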

How the results depend on the processing

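In the results that follow, "LOO" stands for the range over fits that leave out 1 mouse at a time. Where a fit leaves 1 mouse at 48 h, that mouse is assumed to vary like the mice at day 10. No paired analysis was possible because the mice at 48 h (1 and 2) and at day 10 (3, 4 and 5) share no replicate number. Scaling by DESeq2 size factors, leaving out the Lrp2-negative label and a mitochondrial limit of 20% changed no call of the 6 genes.

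Counts of called genes moved with the setting, as did calls of the 6 genes. In the proximal tubule 447 genes were called by edgeR, 1143 with no filter on low counts, 1203 with the DESeq2 Wald test and 190 with equal cells and counts per mouse (LOO 27 to 594). The other counts with no filter were 985 in S1 (main 312, LOO 70 to 278), 870 in the Lrp2+ S2/3 label (main 1.07% of 10538 genes, LOO 6 to 255), 179 in the Lrp2- S2/3 label (main 81, LOO 31 to 136), 2402 in the injured label (main 726, LOO 107 to 887), 451 in endothelial cells (main 40, LOO 0 to 60), 1705 in interstitial cells (main 847, LOO 211 to 702), 2429 in the thick ascending limb (main 1325, LOO 86 to 1379), 92 in distal and principal cells (main 1, LOO 0 to 12), 408 in intercalated cells (main 25, LOO 0 to 23), 1306 in the descending thin limb (main 573, LOO 163 to 592) and 318 in TEC (main 41, LOO 1 to 93). The DESeq2 Wald test gave 263 in the Lrp2+ S2/3 label, 49 in the Lrp2- S2/3 label, 1303 in the injured label, 211 in endothelial cells, 1.1e+02 in distal and principal cells and 86 in intercalated cells. Total counts alone gave 1971 in the injured label, 3484 in the thick ascending limb and 15 in intercalated cells. LOO counts were 128 to 3719 in immune cells (main 2774) and 181 to 4306 in immune cluster 0, which was added after seeing the data (main 3364).

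Counts for differences of time effects had LOO ranges of 6 to 141 for S1 against the Lrp2+ S2/3 label (main 42), 33 to 1236 for proximal tubule against immune (main 1124), 38 to 228 against endothelial (main 210), 281 to 389 against interstitial (main 579) and 50 to 282 against intercalated cells (main 137). They were 6 to 623 for injured against S1 (main 331), 7 to 494 for injured against the Lrp2+ S2/3 label (main 234) and 36 to 64 for the Lrp2- against the Lrp2+ S2/3 label (main 80). The last 4 pairs were chosen after seeing the data.

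None of the fitted values that changed sign passed its test in any of these fits. Dab2 in the proximal tubule (-0.02) was 0.25 on total counts, 0.16 without cells labelled injured or cycling, 0.0366 with equal cells and counts and 0.15 with the S1 and Lrp2+ S2/3 labels alone, a set added after seeing the data (LOO -0.12 to 0.061). On total counts Amn (0.0831) and Dab2 (0.11) in the Lrp2+ S2/3 label and Dab2 in intercalated cells (0.0435) changed sign, and so did Dab2 in the Lrp2- S2/3 label with no filter (-0.047, LOO -0.0124 to 0.15). LOO ranges crossed 0 for Amn in S1 (-0.045 to 0.18), for Amn (-0.11 to 0.0176), Dab2 (-0.14 to 0.0529) and Clcn5 (-0.25 to 0.52) in the Lrp2+ S2/3 label, and for the difference of Napsa in S1 against that label (-0.50, LOO -0.84 to 0.00233).

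Shares of positive cells depended on the thinning. The difference of day 10 less 48 h in proximal tubule cells, in percentage points, was 0.768 at 1000 counts for Lrp2, 11.2 unthinned and -4.82 at 3000. For Cubn it was 1.12, 11.7 and -0.74, for Amn 5.00, 19.9 and 7.24, and for Clcn5 0.386, 13.01 and -0.256. For Napsa it was 21.3, 29.3 and 27.8, and for Dab2 3.42 and 9.74 unthinned. As a mean of per-cell CPM, Amn in the proximal tubule was 153 and Clcn5 was 74.0 CPM. The cause was not tested, apart from the depth that the unthinned shares carry.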

Other observations

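In the cells labelled cycling, which were not tested, Lrp2 was at 548 and 1080.1 CPM at 48 h and at 40.5, 44.9 and 54.9 CPM at day 10. Dab2 was at 249 and 303 CPM and then at 29.8, 39.9 and 42.9 CPM. Clcn5, which is found in many tubule cells, was at 41.9 and 75.1 CPM and then at 38.4, 19.9 and 30.9 CPM, and Napsa at 28.9 and 40.8 CPM and then at 46.9, 9.97 and 49.7 CPM. At day 10 these cells had more thick ascending limb than proximal tubule marker counts, so the values are not a change of 1 cell type.

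Cells with a count of each of the 6 genes made up 23.2% and 39.7% of the Lrp2+ S2/3 label at 48 h and 48.7%, 50.5% and 52.3% at day 10, unthinned. The median depth of these cells was 7508.5 and 15917 counts at 48 h and 15310.0, 20624 and 19061 at day 10, and the part of depth in these shares was not tested.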
